A study of Homo sapiens with 9 samples.

Results

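DNA replication licensing and fork genes were followed in cells labelled HepG2, a human hepatocellular carcinoma line. The set holds 43 genes, named by symbol, and each matched 1 Ensembl identifier among the 61093 rows of the deposited gene table. RNA-seq with a SMARTer mRNA kit covered 3 groups of 3 libraries. They are cells given SKF-96365, named by the series as a TRPV2 inhibitor, cells given 2-APB, named as its agonist, and control cells whose treatment is entered as NULL; TRPV2 is a cation channel. The 2-APB libraries are titled ABP and their value columns carry the name TRPV2, and they were grouped by the treatment label. No dose, exposure time, vehicle or culture is given, so p-values measure only the spread between these libraries, which may be technical. All groups share the line and the kit.

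Before S phase, the origin recognition complex, CDC6 and CDT1 load the MCM helicase onto DNA, a step called licensing. CDC45 and the GINS complex then join the helicase, and primase, the replicative polymerases, the PCNA clamp and its RFC loader copy DNA at the fork. Many of these genes are known targets of E2F transcription factors, whose activity rises as cells pass from G1 into S phase, so their transcripts are widely used as a sign of proliferation.

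RefSeq promoter windows (GRCh38.p14, 250 bases before to 50 after each start) were matched for 37 of the 43 genes. Windows for MCM4, MCM5, GINS4, POLD3, RPA2 and RPA3 were not used here. E2F-type letters (TTTCGCGC, TTTGGCGC, TTTCCCGC or TTTGCCGC, either strand, overlaps counted) stood in at least 1 window of 21 of these 37 genes (56.8%). Over all 27305 genes with a window the share was 3.99%. The letters CCAAT, on either strand, stood in windows of 22 of the 37 genes (59.5%) and of 39.7% of all genes. TTTGAA, the CHR letters of late cell cycle genes, stood in 1 of the 37 (2.70%), RRM1, and in 18.2% of all genes. A match describes letters and not a bound site. Near variants of the E2F-type letters, as in the PRIM1 stretch below, were not counted, so a gene without a match may hold them. The stretches below run from 160 bases before the start to 20 bases from it, 180 bases each, 5′ to 3′, with E2F-type letters in capitals. The first 5 show matches in genes of licensing, clamp and checkpoint, and MCM2 and MCM6 show overlapping matches on both strands. PCNA has another window, at chr20:5119909-5120208, with 0 matches, which is not printed. LIG1 has a match but differed little between libraries, PRIM1 has none and followed another order of libraries, and FEN1 has none and differed widely.
CDC6, chr17:40287719-40287898, plus strand: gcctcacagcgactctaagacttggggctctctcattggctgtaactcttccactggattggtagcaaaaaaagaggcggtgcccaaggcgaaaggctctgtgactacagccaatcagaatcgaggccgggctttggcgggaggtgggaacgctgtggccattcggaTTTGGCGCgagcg
MCM2, chr3:127598251-127598430, plus strand: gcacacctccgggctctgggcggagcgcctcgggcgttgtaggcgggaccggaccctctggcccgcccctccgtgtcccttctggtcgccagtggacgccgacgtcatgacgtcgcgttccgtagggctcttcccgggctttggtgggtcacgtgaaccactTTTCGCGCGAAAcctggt
MCM6, chr2:135876424-135876603, minus strand: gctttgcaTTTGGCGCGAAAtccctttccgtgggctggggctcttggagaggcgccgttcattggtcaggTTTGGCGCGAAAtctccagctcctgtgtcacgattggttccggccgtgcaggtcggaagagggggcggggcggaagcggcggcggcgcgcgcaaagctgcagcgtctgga
PCNA, chr20:5126603-5126782, minus strand: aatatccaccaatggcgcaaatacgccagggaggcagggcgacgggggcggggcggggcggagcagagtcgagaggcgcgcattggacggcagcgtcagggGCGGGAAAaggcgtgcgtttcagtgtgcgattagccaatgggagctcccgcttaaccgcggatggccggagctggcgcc
CLSPN, chr1:35769959-35770138, minus strand: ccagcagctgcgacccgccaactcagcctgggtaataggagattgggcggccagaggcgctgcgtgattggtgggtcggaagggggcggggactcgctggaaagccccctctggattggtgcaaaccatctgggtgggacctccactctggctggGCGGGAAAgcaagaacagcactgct
LIG1, chr19:48170325-48170504, minus strand: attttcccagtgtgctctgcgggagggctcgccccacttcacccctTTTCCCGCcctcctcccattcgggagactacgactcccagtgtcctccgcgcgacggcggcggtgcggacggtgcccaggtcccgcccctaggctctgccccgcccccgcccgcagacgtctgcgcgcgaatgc
PRIM1, chr12:56752304-56752483, minus strand: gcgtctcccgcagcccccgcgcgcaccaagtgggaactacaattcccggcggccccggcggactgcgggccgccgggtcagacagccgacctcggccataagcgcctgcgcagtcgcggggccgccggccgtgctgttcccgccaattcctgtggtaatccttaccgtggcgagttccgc
FEN1, chr11:61792751-61792930, plus strand: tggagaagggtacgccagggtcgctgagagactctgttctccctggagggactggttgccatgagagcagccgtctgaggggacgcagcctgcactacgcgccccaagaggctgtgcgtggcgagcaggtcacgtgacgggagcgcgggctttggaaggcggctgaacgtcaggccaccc
The highest library exceeded the lowest by a median of 2.20-fold in the 21 genes with a match (1.46 to 4.70) and of 2.09-fold in the 16 genes without one (1.58 to 4.08).

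Libraries stood apart from their labels. Control 3 lay with SKF-96365 2 and 3 in the values below. SKF-96365 1 lay among the 2-APB libraries in the summed level of the 43 genes. It did not do so for every gene, and was low for PRIM1 and for TOP2A. Its cell cycle exit markers, given below, summed above all 2-APB libraries and below SKF-96365 2 and 3. That sum was mostly CDKN1A, at 6236 normalized counts in SKF-96365 1 and 3740, 3878 and 4765 in 2-APB 1 to 3. CDKN1B (480) and CCNG2 (442) in SKF-96365 1 lay within the 2-APB libraries (460 to 568 and 385 to 591). Results are also given without control 3 and SKF-96365 1. Depth ran from 14786059 to 19026545 reads, with the total of SKF-96365 3 not certain, and mitochondrial transcripts took 6.90% to 8.04% of the signal. Against the label, 8 of 10 hepatocyte markers had a mean under 10 normalized counts (ALB 4.24, HNF4A 1.21), with SERPINA1 at 339, while 9 of 10 mesenchymal markers had a mean of at least 50. All 5 endothelial and all 5 leukocyte markers had means under 10, and CD3E was at 0.

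All 43 genes were expressed and entered the test, which took 17492 genes with a normalized count of at least 10 in at least 3 libraries. Together they took 3996, 2397 and 2491 CPM (counts scaled to an equal library total) in SKF-96365 1 to 3, 3906, 3893 and 5425 in 2-APB 1 to 3, and 5329, 4525 and 2561 in control 1 to 3. The set was thus lowest in SKF-96365 2, SKF-96365 3 and control 3 and highest in 2-APB 3 and control 1. Those 3 low libraries were the 3 lowest of 9 for 39 of the 43 genes, against 17.6% of all genes tested, and the exceptions were RPA3, POLA2, PRIM1 and LIG1. For 0 of the 43 genes were they the 3 highest (16.4% of all genes tested). The pair of 2-APB 3 and control 1 was highest for 34 of the 43 genes, against 7.62% of all genes tested. These library sets were picked after values were seen and are a description. In bulk RNA, fewer cells in S phase and less RNA of these genes per cell cannot be told apart.

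**Figure D1:**
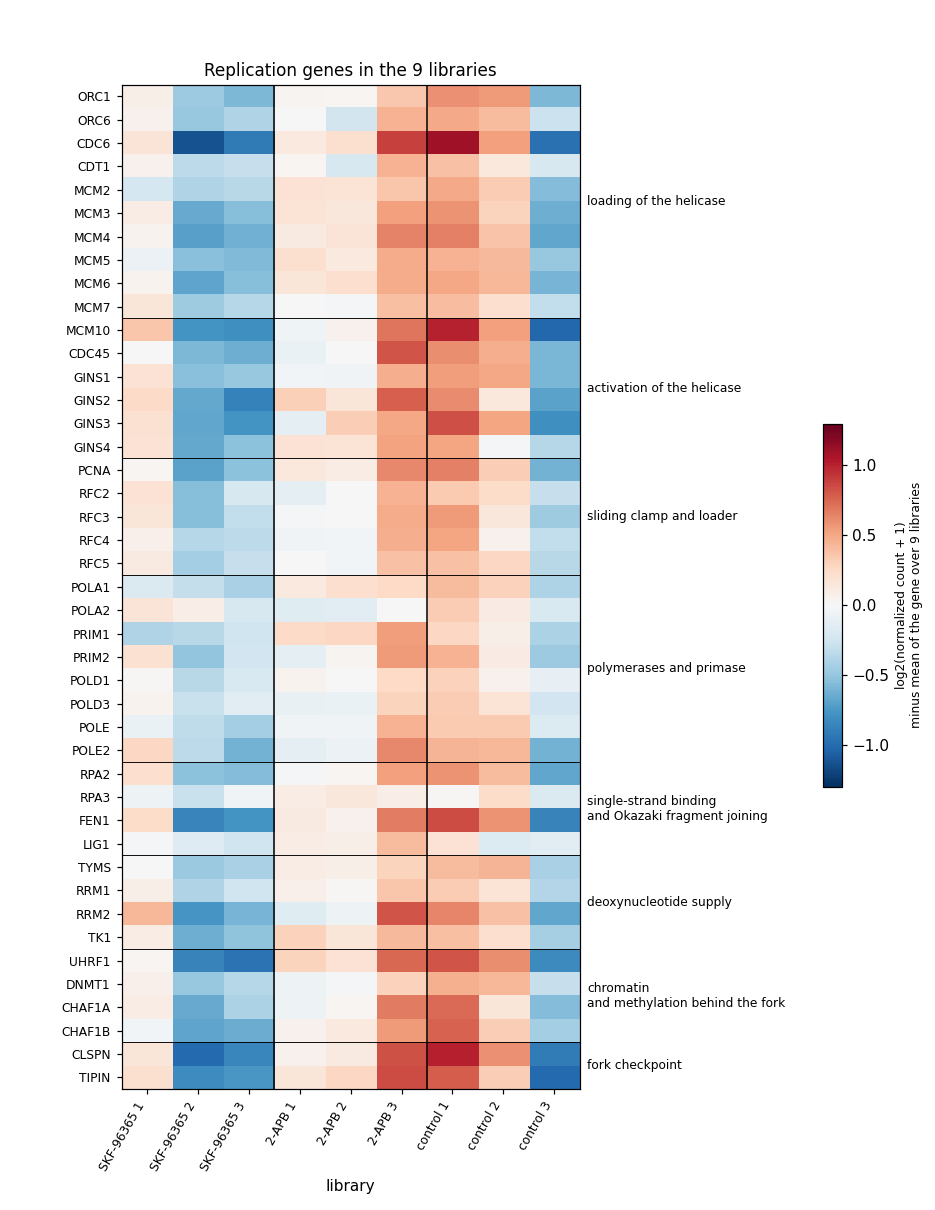
Heat map of 43 genes (down, by role) in 9 libraries (across); colour is log2(normalized count + 1) minus the gene's mean over the 9 libraries. Blue columns mark SKF-96365 2, SKF-96365 3 and control 3, the 3 lowest libraries for 39 genes, and 2-APB 3 and control 1 are the deepest red.

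Other markers moved across the same libraries. The 5 proliferation markers (MKI67, TOP2A, CCNB1, CDK1, BIRC5) summed to 1835, 1467 and 1500 CPM in SKF-96365 1 to 3, 1856, 1913 and 2030.4 in 2-APB 1 to 3, and 2186, 2649.7 and 1426 in control 1 to 3. The 5 cell cycle exit markers (CDKN1A, CDKN1B, CDKN1C, CDKN2B, CCNG2) summed to 434, 562 and 549.5 with SKF-96365, 303, 311 and 343 with 2-APB, and 287, 335 and 583 in control. The first list was thus low, and the second high, in SKF-96365 2, SKF-96365 3 and control 3. The 10 mesenchymal markers summed to 4620.1, 5034 and 5214 CPM in SKF-96365 1 to 3, 4697, 4548 and 4886 in 2-APB 1 to 3, and 4382, 4060.2 and 4945 in control 1 to 3, and the same 3 libraries were the highest of the 9. The mesenchymal markers did not move together, however. In SKF-96365 2, SKF-96365 3 and control 3, SPARC was highest, at 41813, 44802 and 40365 normalized counts. LGALS1 (3426, 3741 and 3703) and CCN2 (976, 1018 and 910) were lowest in the same 3 libraries. The part of these markers in the results was not tested.

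Among the loading factors, CDC6, the ATPase that recruits the helicase with CDT1, differed most between libraries of all 43 genes. Its normalized counts were 1349, 549 and 635 in SKF-96365 1 to 3, 1309, 1387 and 2227 in 2-APB 1 to 3, and 2582, 1737 and 615 in control 1 to 3. The lowest control library thus lay among the SKF-96365 libraries, and the groups overlapped. CDT1, its partner, ranged less, with 604, 459 and 472 with SKF-96365, 593, 504 and 794 with 2-APB, and 754, 638 and 502 in control. Per kb of exon, the level of CDC6 over that of CDT1 was 1.34, 0.717 and 0.807 in the SKF-96365 libraries, 1.32, 1.65 and 1.68 in the 2-APB libraries, and 2.05, 1.63 and 0.735 in the control libraries. On this per-kb scale CDC6 stood above CDT1 in 6 libraries and below it in 3. In normalized counts CDC6 stood above CDT1 in every library. The crossing thus depends on the exon lengths used, 5557 bases for CDC6 and 3336 for CDT1.

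The 6 helicase subunits kept 1 order of levels per kb of exon in all 9 libraries. MCM7, the subunit gene with the highest level, stood at 6016, 3940 and 4177 normalized counts with SKF-96365, 5447, 5300 and 7118 with 2-APB, and 7141, 6312 and 4344 in control. MCM2 stood at 1305, 1164 and 1188 with SKF-96365, 1736, 1733 and 1957 with 2-APB, and 2153, 1924 and 1033 in control. All 3 MCM2 values with SKF-96365 were below all 3 with 2-APB, while control 3 was the lowest library of all. MCM5 stood at 1715, 1239.7 and 1214 with SKF-96365, 2085, 1969 and 2531 with 2-APB, and 2474, 2416 and 1286 in control, again with all SKF-96365 values below all 2-APB values and control 3 among the SKF-96365 libraries. In normalized counts per kb (union of GENCODE 29 exons), the mean levels over 9 libraries were 1261 for MCM7, 875 for MCM3, 657 for MCM4, 564 for MCM6, 322 for MCM2 and 256 for MCM5. MCM7 made up 29.6% to 37.3% of the 6 per-kb levels summed in each library and MCM5 5.91% to 6.996%. The 6 proteins form 1 ring, yet the mean levels per kb of MCM7 and MCM5 lay further apart than the highest and lowest library of any of the 6 (at most 2.57-fold, MCM4). That gap depends in part on the exon unions, 4386 bases for MCM7 and 7338 for MCM5, which pool all annotated transcripts. Their mean normalized counts were 5533 and 1881. The origin recognition genes ORC1 and ORC6 ranged 2.28-fold and 1.99-fold across libraries.

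**Figure D2:**
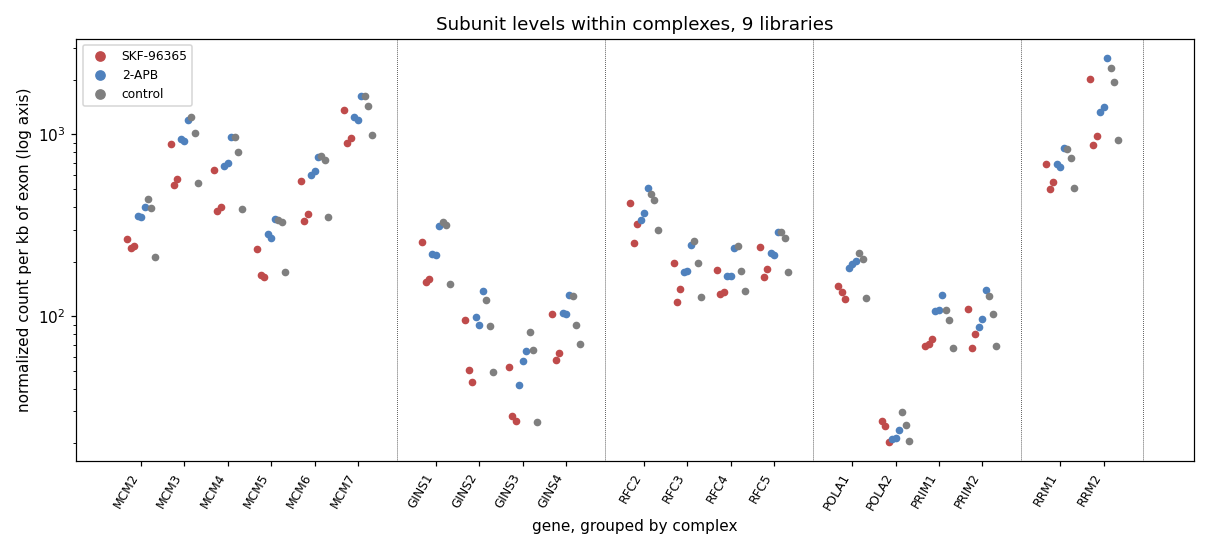
Normalized counts per kb of exon (log axis) of subunit genes in 5 complexes; each point is 1 library, coloured by group, with libraries 1 to 3 from left to right within a group. MCM7 is the highest and MCM5 the lowest mean of the helicase ring, and RRM2 lies above RRM1 in every library.

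Genes that activate the helicase spread widely. MCM10, which helps the loaded helicase to start, stood at 908, 413 and 406 normalized counts with SKF-96365, 679.7, 736 and 1149.7 with 2-APB, and 1421, 1024.5 and 349 in control. Control thus held both the highest and the lowest library. GINS1, the GINS gene with the highest level, stood at 1047, 632 and 655 with SKF-96365, 896, 889.7 and 1272 with 2-APB, and 1343, 1298 and 610.5 in control. Per kb, GINS1 took 46.7% to 56.8% of the 4 GINS levels and GINS3 8.84% to 12.3%. CDC45, GINS2, GINS3 and GINS4 ranged from 2.29-fold (GINS4) to 3.17-fold (GINS2) across libraries.

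The sliding clamp PCNA had the highest level per kb of the 43 genes (mean 1710). Its normalized counts were 2419.7, 1466 and 1649 with SKF-96365, 2611, 2555 and 3667 with 2-APB, and 3746, 2974 and 1552 in control. The 2-APB libraries all lay above the SKF-96365 libraries, and control spanned nearly the whole range. The loader genes RFC2 to RFC5 ranged between 1.76-fold (RFC5) and 2.16-fold (RFC3), and RFC2 held 37.1% to 41.1% of their summed level per kb.

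Polymerase and primase genes varied less, with ranges from 1.46-fold to 2.37-fold. POLE, the catalytic subunit of polymerase epsilon, stood at 1895, 1601 and 1482 normalized counts with SKF-96365, 1953, 1955 and 2747 with 2-APB, and 2544, 2543 and 1773 in control. Its partner POLE2 stood at 289, 188 and 156 with SKF-96365, 220, 226 and 368 with 2-APB, and 325, 324 and 155 in control. POLE and POLE2 shared the 3 low libraries, but SKF-96365 1 lay below 2-APB 1 and 2 for POLE and above them for POLE2. PRIM1, the catalytic primase subunit, stood at 167, 171 and 183 with SKF-96365, 261, 265 and 318 with 2-APB, and 264, 231 and 164 in control. For PRIM1, SKF-96365 1 was therefore low together with SKF-96365 2, SKF-96365 3 and control 3. POLA2, the regulatory subunit of polymerase alpha, was the lowest gene per kb (23.7) and stood at 152, 143 and 117 with SKF-96365, 121, 123 and 135 with 2-APB, and 170.5, 145 and 118 in control. POLA2 differed by 1.46-fold between its highest and lowest library and followed the common order of libraries only in part. Control 1 was its highest library and SKF-96365 3 and control 3 its lowest, but SKF-96365 2 lay above all 2-APB libraries. GENCODE 29 places exons of another gene on 35.1% of POLA2 exon bases on the same strand, so its reads are uncertain. Exons of other genes on the same strand also cover 21.0% of TIPIN and 20.2% of RRM2 exon bases, and exons on the opposite strand 22.7% of MCM2 and 21.2% of GINS4. The genes with these overlaps had low mean normalized counts: 17.8 at POLA2, 0 at TIPIN, 4.30 at MCM2 and 6.19 at GINS4. The gene at RRM2 had no value. How shared reads were counted is not given.

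Downstream of the polymerases, FEN1, the nuclease that trims Okazaki fragments, stood at 1528, 713 and 752 normalized counts with SKF-96365, 1404, 1341 and 2052 with 2-APB, and 2329, 1932 and 709.6 in control. LIG1, the ligase that seals the same fragments, stood at 904, 822 and 768 with SKF-96365, 984, 973 and 1222 with 2-APB, and 1046, 817 and 835 in control. FEN1 thus spread 3.28-fold and LIG1 1.59-fold, and for LIG1 control 2 was as low as control 3. RPA3, the small subunit of the single-strand binding protein, stood at 252, 216 and 255 with SKF-96365, 282, 292 and 280.0 with 2-APB, and 266, 310.4 and 231 in control. Its range of 1.44-fold was the narrowest of the 43, while RPA2, the middle subunit, ranged 2.39-fold.

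Nucleotide supply was led by RRM2, the small subunit of ribonucleotide reductase, with a mean level of 1605 per kb of exon, next to PCNA. RRM2 stood at 10719, 4672 and 5216 with SKF-96365, 7090.3, 7562 and 14009.9 with 2-APB, and 12321, 10359 and 4954 in control. SKF-96365 1 was thus above 2-APB 1 and 2-APB 2. RRM1, the large subunit, ranged 1.68-fold against 3.00-fold for RRM2. Per kb, RRM2 over RRM1 was 2.91, 1.75 and 1.79 with SKF-96365, 1.95, 2.14 and 3.11 with 2-APB, and 2.80, 2.63 and 1.84 in control. TYMS, thymidylate synthase, stood at 771, 549.95 and 575 with SKF-96365, 827, 813 and 945 with 2-APB, and 1027, 1047 and 575 in control. All 3 SKF-96365 values of TYMS were below all 3 with 2-APB. Exons of ENOSF1 on the opposite strand cover 39.1% of TYMS exon bases, and the strand setting is not given, so reads of the pair may mix. TK1, thymidine kinase, ranged 2.09-fold.

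At the chromatin behind the fork, UHRF1, which recruits the maintenance methyltransferase, stood at 2317, 1246 and 1171 normalized counts with SKF-96365, 2796, 2594 and 3818 with 2-APB, and 4023, 3462 and 1285 in control. DNMT1, that methyltransferase, stood at 3718, 2532 and 2743 with SKF-96365, 3407, 3501 and 4373 with 2-APB, and 4888, 4784 and 2879 in control. UHRF1 did not overlap between SKF-96365 and 2-APB, whereas DNMT1 did, through SKF-96365 1. The histone chaperone genes CHAF1A and CHAF1B ranged 2.62-fold and 2.74-fold. CLSPN, the adaptor that carries the checkpoint signal at stalled forks, stood at 1539, 687 and 767 with SKF-96365, 1436, 1499 and 2459 with 2-APB, and 2786, 2089.6 and 736 in control. Its range of 4.06-fold was near that of TIPIN, the fork protection partner of TIMELESS, at 3.64-fold. Across all 43 genes the median range was 2.16-fold, against 1.58-fold for the 12381 genes tested with a mean of at least 50.

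**Figure D3:**
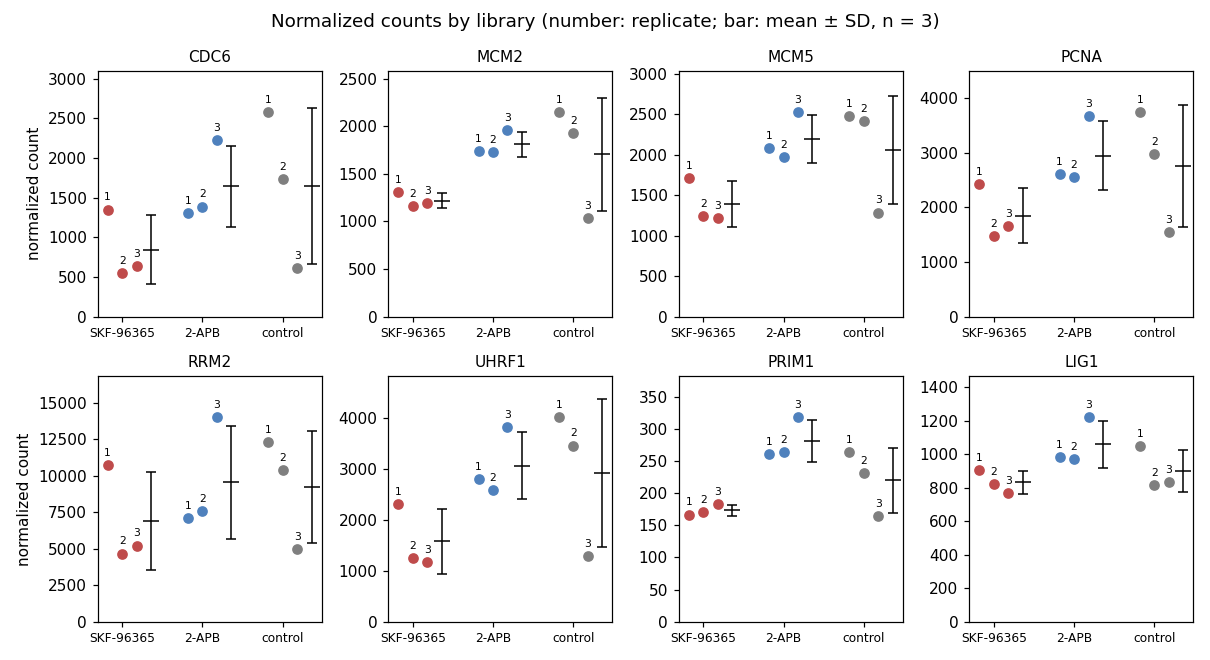
Normalized counts of 8 genes in each library (points, numbered by replicate) with the mean ± SD of 3 libraries beside each group. Control 3 lies within or below the SKF-96365 libraries for all 8 genes, and LIG1 has the narrowest range.

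The inhibitor was set against control first. All 43 genes had a log2 fold change below 0, against 50.5% of all genes tested, with a median of -0.43 for the set and -0.0043 for all genes. None of the 43 was called lower and none higher by limma at a Benjamini-Hochberg adjusted p under 0.05 (0% of all genes tested in either direction). At an unadjusted p under 0.05 limma had 2 of the 43, both lower (1.94% of all genes tested were lower and 2.06% higher at that p): POLE at -0.45 (SE 0.19) and CHAF1B at -0.67 (SE 0.29), each at adjusted p = 0.789. That count was 36 without control 3, 20 without SKF-96365 1 and 0 to 2 with any other library left out. Of all 17492 genes tested, 2229, 1148 and 122 to 297 were lower at that p in the same fits. edgeR and DESeq2 on recovered reads, which also leave out SKF-96365 3, called 0 of the 43, and 0 had an unadjusted p under 0.05 in either, as in limma without SKF-96365 3. For 0 of the 43 did the groups separate fully (2.94% of all genes tested lay fully lower and 3.26% fully higher). The largest differences were CDC6, which averaged 844 ± 439 with SKF-96365 and 1645 ± 987 in control, UHRF1 with 1578 ± 641 and 2923 ± 1446, and CLSPN with 998 ± 471 and 1871 ± 1043 (SD, n = 3 each). Their log2 fold changes were -0.85 (SE 0.49), -0.80 (SE 0.40) and -0.80 (SE 0.47), all at adjusted p = 0.789. The smallest were POLA2 at -0.066 (SE 0.19, adjusted p = 0.924), LIG1 at -0.11 (SE 0.14, adjusted p = 0.836) and RPA3 at -0.15 (SE 0.15, adjusted p = 0.796), and without SKF-96365 3 POLA2 was above 0 in limma (0.044), edgeR (0.041) and DESeq2 (0.036). Without control 1, POLA2 (0.061) and LIG1 (0.0068) were above 0 in limma.

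By role, median log2 fold changes with SKF-96365 were -0.50 for 10 loading genes, -0.51 for 6 activation genes, -0.31 for 5 clamp and loader genes and -0.29 for 8 polymerase and primase genes. They were -0.28 for 4 single-strand binding and joining genes, -0.42 for 4 nucleotide supply genes, -0.57 for 4 chromatin genes and -0.64 for 2 checkpoint genes. Every role group lay below 0, and 0 genes passed the test in any. The median of the 43 was -0.18 without control 1, -0.33 without control 2 and -0.73 without control 3. Without control 3, limma called MCM2 (-0.74, adjusted p = 0.0403) and POLA1 (-0.66, adjusted p = 0.0413) lower, where 0.354% of all genes tested were called lower. Without control 3 and SKF-96365 1 the median was -0.89 and 37 of the 43 were called lower, against 14.5% of all genes tested. Leaving out 2-APB 3 as well gave 40 of the 43, against 19.8%. These libraries were left out after seeing that they lay with another group, which makes such p-values too small.

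**Figure D4:**
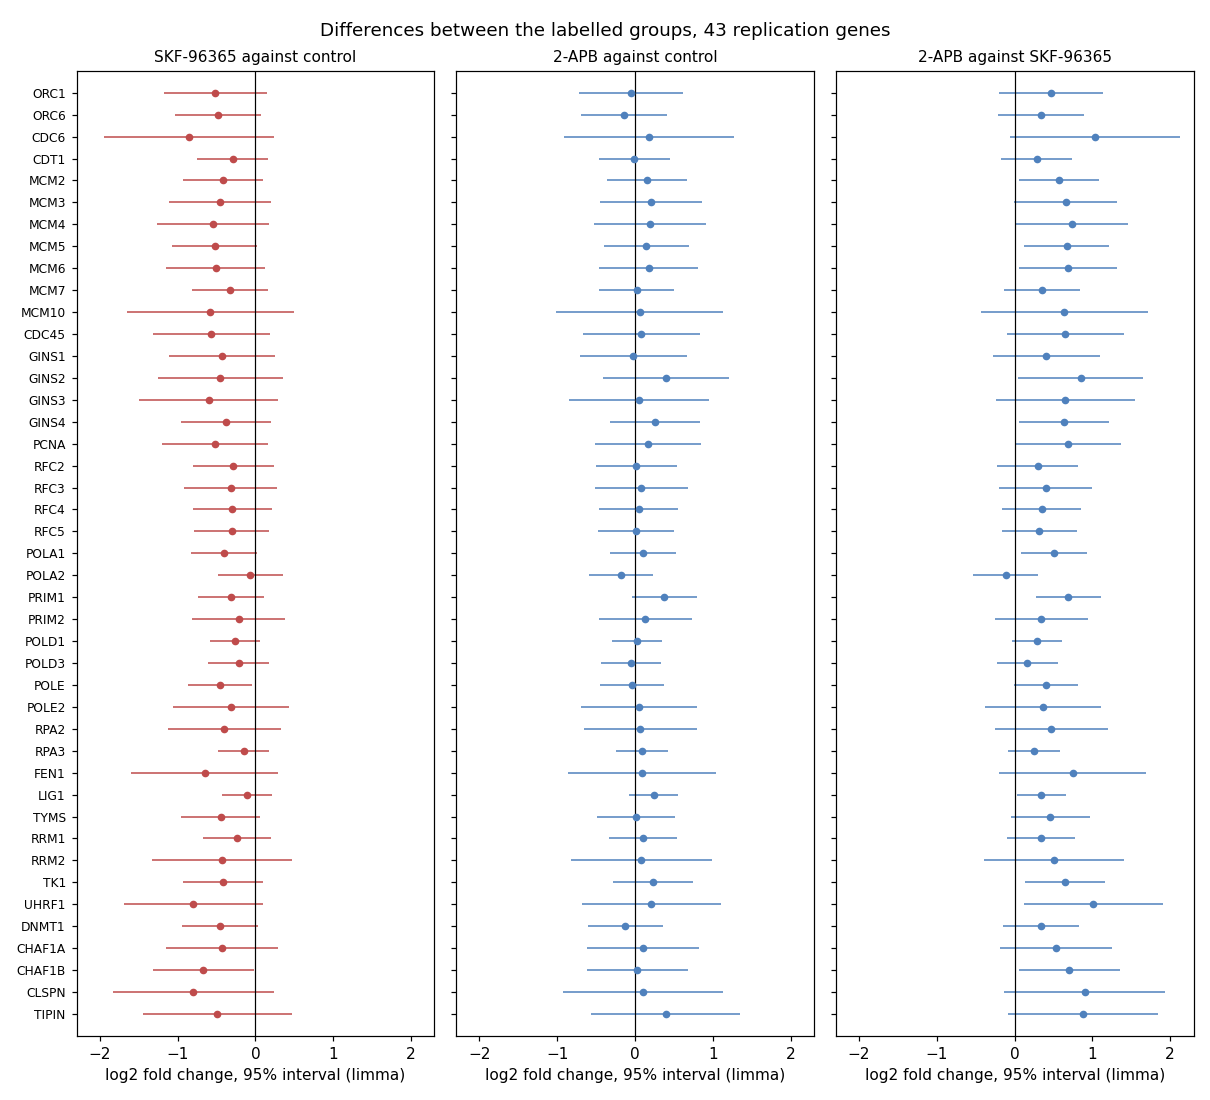
Log2 fold changes of 43 genes with unadjusted 95% intervals from limma, in 3 comparisons of labelled groups. All 43 points lie below 0 for SKF-96365 against control, 42 of 43 lie above 0 for 2-APB against SKF-96365, and points for 2-APB against control lie on either side of 0.

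For the agonist against control, the 43 genes lay on either side of 0: 8 were below it, against 50.3% of all genes tested, and the median was 0.083. Limma called none in either direction (0% of all genes tested), and 0 of the 43 had an unadjusted p under 0.05 in limma, edgeR or DESeq2 (in limma 1.37% of all genes tested were higher and 1.43% lower at that p). With edgeR and with DESeq2, both without SKF-96365 3, 14 of the 43 lay below 0. The groups separated fully for 0 of the 43, where 3.61% of all genes tested lay fully higher and 3.97% fully lower. The largest differences were GINS2 at 0.40 (95% interval -0.41 to 1.21), TIPIN at 0.39 (-0.57 to 1.35) and PRIM1 at 0.38 (-0.043 to 0.80). The smallest were CDT1 at -0.0087 (-0.46 to 0.45), TYMS at 0.013 (-0.49 to 0.52) and RFC2 at 0.014 (-0.51 to 0.53). Each of these 6 had adjusted p = 0.9995 by limma, and the intervals are wide enough to hold changes in both directions. The median was 0.31 without control 1, -0.086 without 2-APB 3 and -0.20 without control 3. With control 3 left out, 39 of the 43 lay below 0. Without control 3, SKF-96365 1 and 2-APB 3, the median was -0.35 and 17 of the 43 were called lower, against 5.79% of all genes tested, so the direction rests on these libraries.

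2-APB against SKF-96365 sets the compounds beside each other, at doses the labels do not give. Of the 43 genes, 42 lay above 0 and POLA2 below it, where 49% of all genes tested lay below 0, with a median log2 fold change of 0.51 against 0.0073 for all genes tested. Limma called none (0% of all genes tested in either direction), with a smallest adjusted p of 0.684 among the 43. The groups separated fully for 15 of the 43, all higher with 2-APB, where 8.21% of all genes tested lay fully higher and 8.79% fully lower. Their log2 fold changes were 0.57 for MCM2, 0.66 for MCM3, 0.74 for MCM4, 0.67 for MCM5 and 0.69 for MCM6 in the helicase, so that of its 6 genes only MCM7 overlapped. They were 0.51 for POLA1, 0.69 for PRIM1 and 0.41 for POLE among polymerases, 0.69 for PCNA, 0.24 for RPA3 and 0.34 for LIG1. They were 0.46 for TYMS, 0.65 for TK1, 1.01 for UHRF1 and 0.70 for CHAF1B, and the other 28 genes overlapped. At an unadjusted p under 0.05 limma had 13 of the 43, all higher with 2-APB (3.21% of all genes tested were higher and 4.09% lower at that p). That count was 1 without SKF-96365 2, 1 without SKF-96365 3, 1 without 2-APB 3, 7 without 2-APB 2, 8 without 2-APB 1, 27 without SKF-96365 1 and 24 without control 3. Of all 17492 genes tested, 244, 211, 436, 266, 226, 1421 and 1029 were higher at that p in these fits, in the same order. edgeR and DESeq2, both without SKF-96365 3, had 1 of the 43 each. PRIM1 had the smallest unadjusted p, 0.00427 by limma, with 281 ± 32.3 normalized counts with 2-APB and 173 ± 8.18 with SKF-96365 (SD, n = 3 each). Its log2 fold change was 0.69 (SE 0.19, adjusted p = 0.684), higher in 3 of 3 libraries.

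The largest differences between the compounds were CDC6 at 1.03 (SE 0.49, adjusted p = 0.694), UHRF1 at 1.01 (SE 0.40, adjusted p = 0.684) and CLSPN at 0.90 (SE 0.47, adjusted p = 0.694). CDC6 and CLSPN had overlapping groups through SKF-96365 1. The smallest were POLA2 at -0.11 (95% interval -0.53 to 0.30), POLD3, an accessory subunit of polymerase delta, at 0.17 (-0.22 to 0.55), and RPA3 at 0.24 (-0.090 to 0.58). The median was 0.66 without SKF-96365 1 and 0.36 without 2-APB 3. Without control 3 and SKF-96365 1, 29 of the 43 were called higher with 2-APB, against 6.44% of all genes tested, and also without 2-APB 3 they were 30, against 7.04%. Comparisons that share the SKF-96365 or control libraries are not independent of each other.

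Other replication genes were read from a further list. Of 43 further genes (other origin, initiation, polymerase, nuclease, nucleotide and histone chaperone genes) 42 entered the test, and with all 9 libraries limma called 0 of them in each comparison, as did edgeR and DESeq2 without SKF-96365 3. At an unadjusted p under 0.05 limma had 2 for SKF-96365 against control, both lower (1.94% of all genes tested), and 0 for 2-APB against control. For 2-APB against SKF-96365 it had 5 higher (3.21% of all genes tested) and 1 lower (4.09%), RRM2B. Without control 3, limma called 1 of the 42, lower, for SKF-96365 against control, where 173 of the 17492 genes tested were called, 62 of them lower. Without control 3 and SKF-96365 1 it called 34 for SKF-96365 against control, 33 of them lower, where 4823 of the 17492 were called, 2528 of them lower. For 2-APB against SKF-96365 it called 19, 1 of them lower, against 2283, 1157 of them lower. Also without 2-APB 3 it called 36 (35 lower) and 17 (0 lower), against 6569 (3462 lower) and 2575 (1343 lower) of all genes tested. For 2-APB against control it then called 7, all lower, against 1735 (1013 lower). With SKF-96365 against control, 40 of the 42 lay below 0 (median -0.29). With 2-APB against control, 17 of the 42 lay below 0 (median 0.016), with 21 by edgeR and 22 by DESeq2, and with 2-APB against SKF-96365, 3 of the 42 (median 0.33). SKF-96365 2, SKF-96365 3 and control 3 were the 3 lowest libraries for 28 of the 42, against 17.6% of all genes tested. The 3 with the highest means were TOP2A (14963 normalized counts), NASP (3791) and RPA1 (2895). TOP2A, which untangles sister DNA, stood at 11898, 12129 and 13097 with SKF-96365, 15254, 15769 and 15387 with 2-APB, and 17057, 22211 and 11864 in control. All 3 TOP2A values with SKF-96365 lay below those with 2-APB (log2 fold change 0.32, SE 0.19, adjusted p = 0.700 by limma). SKF-96365 1 was low for TOP2A but not for NASP, a histone chaperone gene, which stood at 4046, 2769 and 2772 with SKF-96365, 3892, 4052 and 4986 with 2-APB, and 4664, 4017 and 2918 in control. RPA1, the large subunit of the single-strand binding protein, stood at 3100, 2312 and 2592 with SKF-96365, 2896, 2990.4 and 3389 with 2-APB, and 3374, 3114 and 2286 in control.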

How the data were processed

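The deposited signal is a table of gene counts normalized with DESeq2 in 9 libraries, per the table's own name and the tool in the submitters' processing notes; aligner, counter, genome build, annotation, strand and version are not given in the sources used here. In every library 100% of values were whole multiples of 1 step (tolerance 0.001 reads), as when counts are divided by a size factor. Reads were taken as recovered in 8 libraries; the step of SKF-96365 3 (0.992) is too near 1 to be certain, so edgeR 4.0.16 and DESeq2 1.42.0 ran on the other 8, as alternatives. Symbols were matched by Ensembl identifier, and exon lengths came from GENCODE 29. These lengths pool all annotated transcripts of a gene, so levels per kb compare different genes only roughly.

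The test was limma 3.58.1 (R 4.3.3) with an intensity trend on log2(normalized count + 1), over 17492 genes with at least 10 in at least 3 libraries, in 1 fit of all 9 libraries with two-sided contrasts and Benjamini-Hochberg adjustment over all genes. Adding 1 understates changes of low genes. It was tested on simulated data. Alternatives were pseudocounts, filters, rescalings, the spread model, the replicate number as a block, and libraries left out. Values in every library are given for the genes with the highest mean and widest range in each role group, for MCM2, MCM5, CDC6, CDT1, PCNA, RRM2, TYMS and UHRF1, for 4 genes outside the common order of libraries (chosen after values were seen) and for the 3 highest further genes. Fold changes are given for the 3 largest and 3 smallest per comparison and where groups did not overlap. Members, lists, motifs and printed promoters were chosen with earlier results of these data known.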

Additional observations from a re-analysis of the deposited data

How the results depend on the processing

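The median log2 fold change of the 43 genes stayed below 0 for SKF-96365 against control and above 0 for 2-APB against SKF-96365 under every pseudocount, filter, rescaling, spread model and count tool tried and with each library left out. Leaving out 1 library gave -0.73 to -0.18 and 0.36 to 0.66 for these medians, and -0.20 to 0.31 for 2-APB against control. In the same fits, 0 to 173 genes and 0 to 2 of the 43 were called for SKF-96365 against control, 0 and 0 for 2-APB against control, and 0 to 4 and 0 for 2-APB against SKF-96365. DESeq2 called 2 genes for SKF-96365 against control and 1 for 2-APB against SKF-96365, and limma on only the compared groups called 4 genes for 2-APB against SKF-96365, none of them among the 43; the cause was not tested. Fits chosen after seeing the data left out libraries that lay with another group, which makes their p-values too small. Without control 3 and SKF-96365 1, 4823 genes and 37 of the 43 (median -0.89) were called for SKF-96365 against control, and 2283 and 29 for 2-APB against SKF-96365. Also without 2-APB 3, these were 6569 and 40 (median -0.89), 2575 and 30, and 1735 and 17 (median -0.35) for 2-APB against control.

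For 2-APB against control, 31 of the 43 genes changed sign without control 3, 21 without 2-APB 3, and 33 without control 3, SKF-96365 1 and 2-APB 3, where 12 of the 33 were called lower. The edgeR and DESeq2 fits also leave out SKF-96365 3. POLA2 with SKF-96365 against control was 0.041 by edgeR and 0.036 by DESeq2, and 0.044 by limma without SKF-96365 3. With 1 library left out POLA2 ran from -0.20 to 0.061 and LIG1 from -0.17 to 0.0068. For 2-APB against control, CDT1 was 0.031 with upper-quartile rescaling, 0.025 with quantile normalization, 0.0027 by edgeR and 0.0022 by DESeq2, and TYMS was -0.028 by edgeR and -0.0296 by DESeq2. Without control 3 and SKF-96365 1, RFC2 was -0.18, TYMS -0.27 and TIPIN -0.13, and also without 2-APB 3 they were -0.35, -0.34 and -0.34 and GINS2 -0.14. With 1 library left out CDT1 ran from -0.19 to 0.14, RFC2 from -0.18 to 0.14, TYMS from -0.27 to 0.16 and TIPIN from -0.13 to 0.77.

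With the replicate number as a block, 0 genes were called in each comparison, and the medians of the 43 were -0.43, 0.083 and 0.51. Same-numbered libraries had correlations of deviations from -0.35 to 0.50, with 3 of 9 pairs over 0.1, and the best match had the same number in 3 of 18 cases, so the numbers were treated as names. The intervals cover the spread between 3 libraries, and reads were counted with no molecular identifiers stated.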

Other observations

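RRM2B, the ribonucleotide reductase small subunit gene known as a p53 target, was singled out after its values were seen. It had 1509, 1779 and 2005 normalized counts in SKF-96365 1 to 3, 1325, 1443 and 1073 in 2-APB 1 to 3, and 1232, 1679.8 and 1656 in control 1 to 3. All 3 values with 2-APB were below all 3 with SKF-96365 (log2 fold change -0.46, SE 0.17, adjusted p = 0.684 by limma), as for 8.79% of all genes tested. RRM2B was thus highest in SKF-96365 2 and 3, where RRM2 was low, and lowest in 2-APB 3, where RRM2 was highest. This opposite order did not hold throughout. Control 2 lay above control 3 for RRM2B (1679.8 and 1656) and also for RRM2 (10359 and 4954). RNASEH2A, a subunit of the nuclease that removes ribonucleotides from DNA, was the 1 further replication gene that did not enter the test, with 3.49, 2.06 and 3.97 normalized counts with SKF-96365, 6.58, 6.87 and 6.90 with 2-APB, and 10.5, 5.07 and 5.22 in control.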
